A study of Danio rerio with 8 samples.

Results

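The Slit, Robo and netrin genes encode secreted axon guidance cues and their receptors. They were examined here through every array probe whose transcript accession belongs to 1 of 10 genes: the Slit ligand genes slit1a, slit1b, slit2 and slit3, the Roundabout receptor genes robo1, robo2 and robo3, the netrin receptor gene dcc, and the netrin genes ntn1a and ntn1b. The rule found 20 probes of 9 genes among 43603 probes. No probe matched robo1, which is not analysed here. The genes with a probe are 9 of 12858 genes that a probe could be named for. The 20 probes are 3 each for slit2, robo2, robo3 and ntn1a, 2 each for slit1a, slit1b and slit3, and 1 each for dcc and ntn1b. All 20 were well above background on the 4 arrays of at least 1 group and were tested together with the other probes that met this criterion, 36709 in all.

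RNA came from whole zebrafish larvae of the WIK background at 4 days post fertilization. The 4 control samples are called wild type or control in the labels, and the 4 LIS1 morphant samples came from larvae in which LIS1, a regulator of the microtubule motor dynein, had been knocked down transiently by morpholino (LIS1 KD). Each sample was a pool of 10 larvae on its own 1-colour array. Per the design text, morphant larvae with a mild phenotype that showed seizures were chosen, and the eggs of both groups were from shared pools. The labels state neither whether controls were injected nor the sequence, dose or target copy of the morpholino, and a knockdown of this kind reaches all tissues. In whole larvae, fewer cells of a type and less RNA per cell cannot be told apart.

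Slit proteins are large secreted ligands that repel growing axons and migrating neurons through Robo receptors, and netrin-1 is a laminin-related secreted protein that attracts axons through DCC and repels them through UNC5 receptors. Both kinds of cue are made at the midline of the developing nervous system, where they decide which axons cross it. In zebrafish, robo2 is the gene mutated in astray, in which retinal axons take wrong paths, and in robo3 mutants commissural axons of the hindbrain fail to cross. Netrin-1 is known in zebrafish from the floor plate and ventral neural tube.

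Each value is a log2 signal from which its array's 75th percentile was subtracted, so that 0 is that percentile. They compare a probe with itself across arrays and do not rank genes by abundance. As a processed signal, the 75th percentile averaged 1237 ± 178 on control arrays and 1598 ± 154 on morphant arrays (SD, n = 4 each). A change is thus relative to a percentile that was itself higher in morphants. Between 83.8% and 88.8% of spots per array were well above background, none was saturated, and arrays within a group correlated at 0.976 to 0.992. Of 6 tested probes of the LIS1 genes pafah1b1a and pafah1b1b, 1 probe of pafah1b1a passed, at 0.65 (limma adjusted p = 0.0305). The other 5 differed by -0.03 to 0.07. The number of LIS1 probes that passed was 0 without control replicate 1, control replicate 3, morphant replicate 3 or morphant replicate 4. It was also 0 with normexp correction of the raw signals. Transcript levels do not check a knockdown whose mode of action is not stated.

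Guidance transcripts of this family were lower in the LIS1 morphants or did not pass the test, and none passed as higher. In the limma fit over all probes, 11 of the 20 probes fell at an adjusted p under 0.05, and 0 rose. The 11 belong to 6 genes: ntn1a, ntn1b, dcc, slit1a, slit2 and robo2. The called slit1a probe entered the test through the controls only, as did slit2 A_15_P715226, which was not called. Among the 18 member probes well above background on all 8 arrays, 10 were called, none of them of slit1a. Their median change was -0.54, and 37.6% of all probes in that setting were called. Over all probes tested the same threshold called 38.5%, with 21% lower and 17.4% higher. With the replicate number as a block 10 of the 20 fell and 0 rose, where 44.1% of all probes were called, 24.2% lower and 19.9% higher. The groups did not overlap for 10 of the 20 probes, all lower in morphants, against 37.8% of all probes, 20.6% of them lower. The median change of the 20 probes was -0.68 and that of all probes tested was -0.03. It was -0.15 with normexp correction, -0.27 in the deposited value table and -0.17 with normexp then quantile normalization. Of the 20 probes 2 were called with a change of at least 2-fold, against 16.1% of all probes tested. The median change of the 20 probes was below 0 on each slide, at -0.35, -0.55, -0.37 and -0.80 on the slides that carried replicates 1, 2, 3 and 4. The 11 called probes stayed below 0 in all 175 of their values under the alternatives run, and 126 of those values were still called. Many of the 175 could not turn sign. Leaving out an array cannot turn it where the groups do not overlap, and the filters and the block leave the change as it was.

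**Figure D1:**
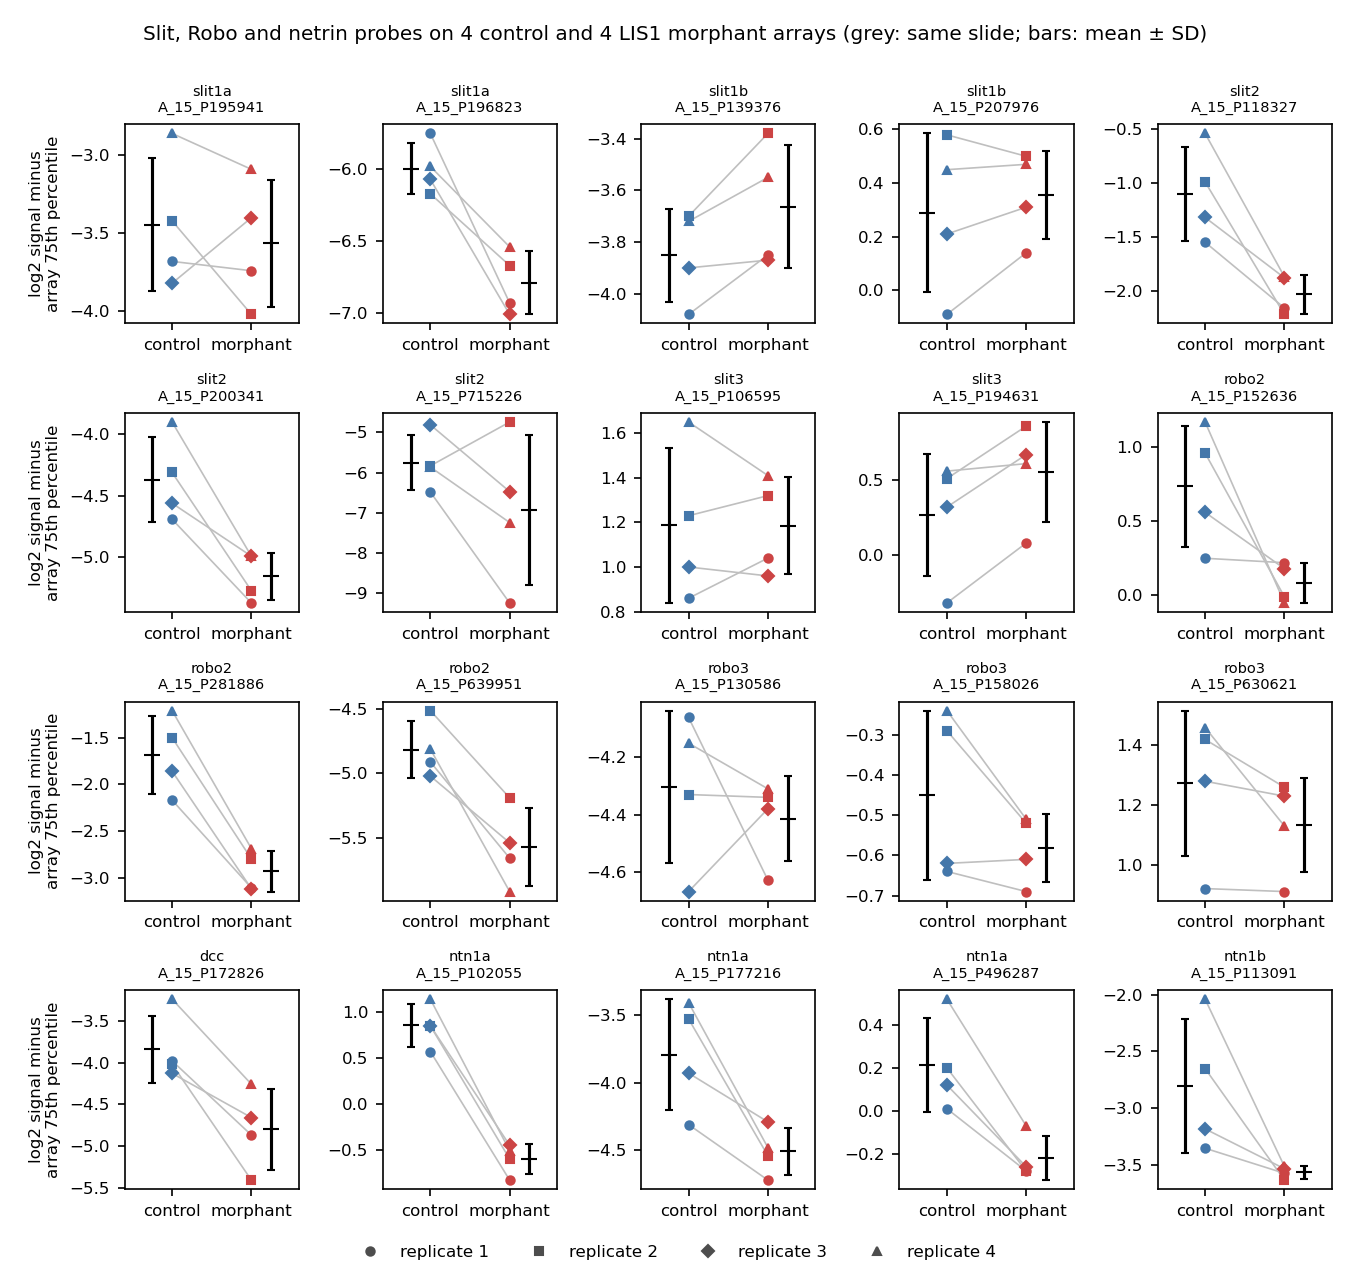
Log2 signal relative to the array's 75th percentile (vertical axis, scaled separately in each panel) for the 20 probes on 4 control arrays (blue) and 4 LIS1 morphant arrays (red). Symbols mark the replicate number, grey lines join the arrays of a slide and bars show mean ± SD; the groups are apart in 10 panels, among them 2 probes each of slit2 and ntn1a, all 3 probes of robo2 and the single probes of dcc and ntn1b.

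The netrin-1 gene ntn1a fell on all 3 of its probes, by amounts that differed between probes. Its brightest probe, A_15_P102055, read 0.57, 0.85, 0.85 and 1.14 in control replicates 1 to 4 and -0.83, -0.60, -0.45 and -0.51 in morphant replicates 1 to 4. Every control array was above the percentile and every morphant array below it, and the groups did not overlap. The mean went from 0.86 ± 0.23 to -0.60 ± 0.17 (SD, n = 4 each). The change of -1.45 had a standard error of 0.15 and a limma adjusted p of 0.000255. This is a level 2.74-fold lower in morphants, and the change was between -1.65 and -1.31 on the 4 slides. It passed in each of the 16 alternatives run, with -1.55 to -1.36 as single arrays were left out.

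The second probe of ntn1a, A_15_P496287, read 0.01, 0.20, 0.12 and 0.52 in controls and -0.28, -0.28, -0.26 and -0.07 in morphants. The groups did not overlap, though morphant replicate 4 lay close to the lowest control. The change was -0.43 (standard error 0.14, limma adjusted p = 0.0360), or 1.35-fold lower. The remaining probe, A_15_P177216, was dim, with processed signals of 54.5 to 114.8. It read -4.31, -3.53, -3.93 and -3.41 in controls and -4.72, -4.54, -4.29 and -4.48 in morphants. Control replicate 1 fell among the morphant values, and the other controls lay above them. The change was -0.71 (standard error 0.21, limma adjusted p = 0.0255). Both weaker calls depended on single arrays. For A_15_P496287 the adjusted p was 0.0784, 0.0580 and 0.0661 without control replicate 2, 3 or 4, and 0.0861, 0.0835 and 0.0720 without morphant replicate 1, 2 or 3. For A_15_P177216 it was 0.0730 and 0.0558 without control replicate 2 or 4, and 0.0686 and 0.0582 without morphant replicate 1 or 2.

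The paralogous netrin gene ntn1b has a single probe, A_15_P113091. It read -3.35, -2.65, -3.18 and -2.04 in controls and -3.57, -3.63, -3.53 and -3.51 in morphants. The 4 morphant pools were nearly alike (SD 0.06) whereas the controls spread widely (SD 0.59), and the groups did not overlap. The change of -0.76 had a standard error of 0.26 and passed narrowly (limma adjusted p = 0.0487). Within slides it ran from -1.46 to -0.23. The call was lost without control replicate 2 (adjusted p = 0.113) or 4 (0.0591) and without morphant replicate 1, 2, 3 or 4 (0.0944, 0.100, 0.0831 and 0.0814). It was lost as well with median scaling (0.0625), with quantile normalization (0.0715) and without a filter on dim probes (0.0627). The adjusted p was 0.0773 in the deposited value table, 0.534 with normexp correction and 0.0886 with normexp then quantile normalization. The call was thus lost in 12 of the 16 alternatives run.

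The receptor gene dcc, which encodes the receptor that mediates attraction to netrin-1, fell as well. Its probe A_15_P172826 read -3.98, -4.02, -4.13 and -3.24 in controls and -4.87, -5.41, -4.66 and -4.26 in morphants. All morphant pools lay below all controls, with 1 control pool, replicate 4, standing above the other 3. The mean was -3.84 ± 0.40 in controls against -4.80 ± 0.48 (SD, n = 4 each). The change of -0.96 (standard error 0.28, limma adjusted p = 0.0244) is 1.95-fold lower. The difference was below 0 on all 4 slides, between -1.40 and -0.53. The call was lost without morphant replicate 1 (adjusted p = 0.0577) or 2 (0.0543) and with quantile normalization (0.0698). It was also lost in the deposited value table (0.0530), with normexp correction (0.787) and with normexp then quantile normalization (0.0680). Signals of this probe were 42.0 to 128.8, against a lowest signal of 10.4 to 14.4 among spots well above background.

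**Figure D2:**
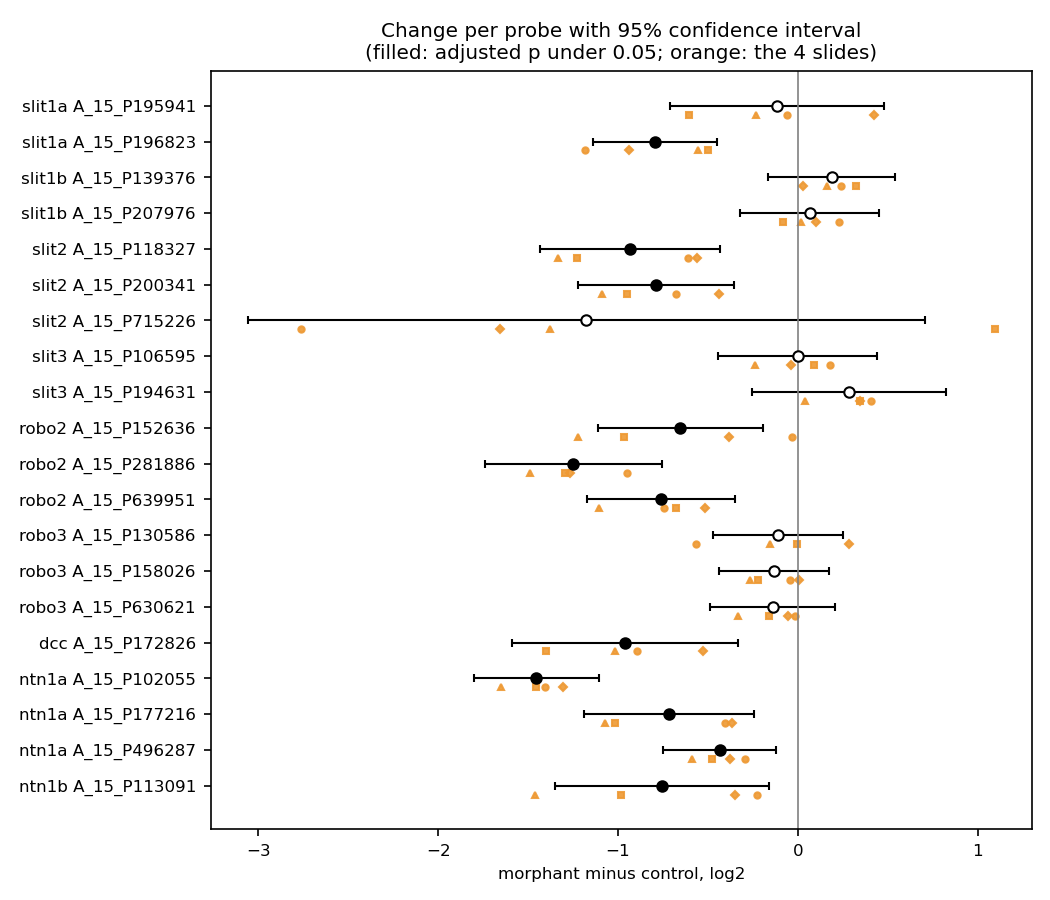
Morphant minus control difference in log2 signal (horizontal axis) for each of the 20 probes, with its 95% confidence interval from the limma fit; filled symbols passed an adjusted p of 0.05 and orange symbols are the differences within the 4 slides. The 11 filled symbols all lie below 0, from -1.45 for an ntn1a probe to -0.43, and the intervals of the robo3, slit1b and slit3 probes span 0.

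Among the Slit ligand genes, slit2 fell on both probes that were above background on all arrays. Slit2 is a midline repellent for axons that carry Robo receptors. Probe A_15_P118327 read -1.55, -0.99, -1.32 and -0.54 in controls and -2.16, -2.22, -1.88 and -1.87 in morphants. The morphant pools were all lower than the lowest control. The change was -0.93 (standard error 0.22, limma adjusted p = 0.0105), or 1.91-fold lower, and within slides it ran from -1.33 to -0.56. Probe A_15_P200341 read -4.69, -4.31, -4.56 and -3.90 in controls and -5.37, -5.27, -4.99 and -4.99 in morphants, again without overlap. It fell by 0.79 (standard error 0.19, limma adjusted p = 0.0118). Leaving out any 1 array ended neither call.

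The remaining slit2 probe, A_15_P715226, was well above background on all 4 control arrays and on 2 of 4 morphant arrays. It read -6.48, -5.83, -4.81 and -5.86 in controls and -9.24, -4.74, -6.47 and -7.24 in morphants, so that morphant replicate 2 was above every control. Its difference of -1.18 had a 95% interval from -3.06 to 0.71 (limma adjusted p = 0.289). This interval holds both 0 and the changes of the other slit2 probes.

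The slit1a gene gave unequal results on its 2 probes. In zebrafish, Slit1a acts in the optic tectum, where it is bound to collagen IV of the surface membrane and guides retinal axons to their layers. Probe A_15_P196823 read -5.75, -6.17, -6.07 and -5.98 in controls and -6.93, -6.67, -7.01 and -6.54 in morphants, with no overlap. The change was -0.79 (standard error 0.15, limma adjusted p = 0.00413). Its signals of 11.6 to 22.2 lay close to the lowest signals well above background, 10.4 to 14.4 per array, and it was well above background on 3 of 4 morphant arrays. The brighter probe, A_15_P195941, read -3.68, -3.42, -3.82 and -2.86 in controls and -3.74, -4.02, -3.40 and -3.09 in morphants. These ranges overlapped, and the difference was -0.12 with a 95% interval from -0.71 to 0.48 (limma adjusted p = 0.749).

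The genes slit1b and slit3, which encode Slit ligands of the same kind, did not pass on any probe. For slit1b, probe A_15_P207976 read -0.09, 0.58, 0.21 and 0.45 in controls and 0.14, 0.50, 0.31 and 0.47 in morphants, and the other probe, A_15_P139376, read -4.08, -3.70, -3.90 and -3.72 against -3.85, -3.38, -3.87 and -3.55. The differences were 0.07 (95% interval -0.32 to 0.45; limma adjusted p = 0.781) and 0.19 (-0.17 to 0.54; adjusted p = 0.367). For slit3, probe A_15_P106595 read 0.86, 1.23, 1.0 and 1.65 in controls and 1.04, 1.32, 0.96 and 1.41 in morphants. The morphant values lay within the control range, and the means were both 1.19, with a 95% interval of the difference from -0.44 to 0.44. The second slit3 probe, A_15_P194631, read -0.32, 0.51, 0.32 and 0.56 in controls and 0.08, 0.86, 0.67 and 0.61 in morphants. It was higher in the morphant on all 4 slides, by 0.04 to 0.41, but the difference of 0.29 did not pass (95% interval -0.25 to 0.83; limma adjusted p = 0.368). A fall of more than 0.44 lies outside the intervals of all 4 probes.

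The receptor gene robo2 fell on all 3 probes. Probe A_15_P281886 read -2.17, -1.50, -1.86 and -1.21 in controls and -3.11, -2.80, -3.12 and -2.69 in morphants. The highest morphant pool was well below the lowest control. The mean was -1.68 ± 0.42 in controls against -2.93 ± 0.22 (SD, n = 4 each). The change of -1.25 (standard error 0.22, limma adjusted p = 0.00264) is 2.38-fold lower. Probe A_15_P639951 read -4.91, -4.51, -5.02 and -4.81 in controls and -5.66, -5.19, -5.54 and -5.92 in morphants, without overlap. It fell by 0.76 (standard error 0.18, limma adjusted p = 0.0114).

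The brightest robo2 probe, A_15_P152636, read 0.25, 0.96, 0.56 and 1.17 in controls and 0.22, -0.01, 0.18 and -0.05 in morphants. Control replicate 1 was only just above the highest morphant pool, and the difference within that slide was -0.03, against -1.22 to -0.39 on the other slides. The change of -0.65 had a standard error of 0.20 (limma adjusted p = 0.0320) and was not called with the replicate number, which is also the slide, as a block (adjusted p = 0.0584). It was lost without control replicate 2 (adjusted p = 0.0881) or 4 (0.0641) and without morphant replicate 1, 2, 3 or 4 (0.0520, 0.0753, 0.0515 and 0.0733). The calls of the other robo2 probes did not depend on a single array.

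By contrast, the 3 probes of robo3 gave small differences of like size that did not pass. The brightest, A_15_P630621, read 0.92, 1.42, 1.28 and 1.46 in controls and 0.91, 1.26, 1.23 and 1.13 in morphants, a difference of -0.14 (95% interval -0.49 to 0.21; limma adjusted p = 0.50). Probe A_15_P158026 read -0.64, -0.29, -0.62 and -0.24 against -0.69, -0.52, -0.61 and -0.51, a difference of -0.13 (-0.44 to 0.17; adjusted p = 0.467). Probe A_15_P130586 read -4.06, -4.33, -4.67 and -4.15 against -4.63, -4.34, -4.38 and -4.31, and differed by -0.11 (-0.47 to 0.25; adjusted p = 0.608). The morphant values lay within or just beyond the control range for each of these probes. Robo3 of vertebrates differs from the other Robo receptors in that it permits midline crossing of commissural axons.

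Whether related genes changed unequally was tested within arrays, on the difference between the brightest probes of each pair, in 4 pairs. None passed after adjustment over the pairs. The log2 signal of slit2 minus that of slit3 went from -2.29 ± 0.10 in controls to -3.22 ± 0.29 in morphants (SD, n = 4 each), a change of -0.93 with no overlap (two-sided exact permutation p = 0.0286, adjusted p = 0.0571). The value for ntn1a minus ntn1b went from 3.66 ± 0.39 to 2.96 ± 0.15, a change of -0.70, also with no overlap (exact permutation p = 0.0286, adjusted p = 0.0571). For these pairs 0.0286 is the smallest p that 4 against 4 arrays allow. When only these pairs among the 4 reach it, the adjusted p cannot be below 0.0571. The adjusted test could therefore pass only if a further pair reached that p too. The direction for ntn1a and ntn1b rests on the brightest ntn1a probe. The other ntn1a probes changed by -0.43 and -0.71, which is no larger a fall than the -0.76 of ntn1b. The change for robo2 minus robo3 was -0.51 (exact permutation p = 0.0571, adjusted p = 0.0762) and that for slit1a minus slit1b was -0.18 (exact permutation p = 0.600, adjusted p = 0.600). An unequal change of slit2 and slit3, of ntn1a and ntn1b, or of robo2 and robo3 was therefore not established at the 0.05 level. This is not evidence that the changes were equal. The direction of these 3, taken on brightest probes, held in each alternative, but many alternatives could not turn it. Leaving out an array cannot turn it for the pairs without overlap, and the filters and the block leave the change as it was.

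The family varied between pools of a group as well as between groups. Control replicate 4 was the highest control for 14 of the 20 probes and control replicate 1 the lowest for 15, where over all probes tested these arrays were highest or lowest for 33.6% and 29.5%. The median deviation of the 20 probes from their control mean was 0.30 in control replicate 4 and -0.33 in control replicate 1, while that of all probes was 0.02 and 0.01. Among morphants, replicate 1 was lowest for 10 probes and replicate 4 highest for 11, against 24.2% and 25.5% of all probes. The median deviation from the morphant mean was -0.18 in replicate 1, and 0.07, 0.07 and 0.11 in replicates 2, 3 and 4. Arrays of replicate 1 thus read low for these genes in both groups, while morphant replicate 4 was close to replicates 2 and 3. Without control replicate 4 the median change of the 20 probes was -0.51, and 7 of the 20 were called against 35.1% of all probes. The number called was also 7 without control replicate 2 (28.7% of all probes). It was 6 without morphant replicate 1 (30.5% of all) and 6 without morphant replicate 2 (31.2% of all). Those member counts are near the share of all probes, which also holds calls in both directions.

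**Figure D3:**
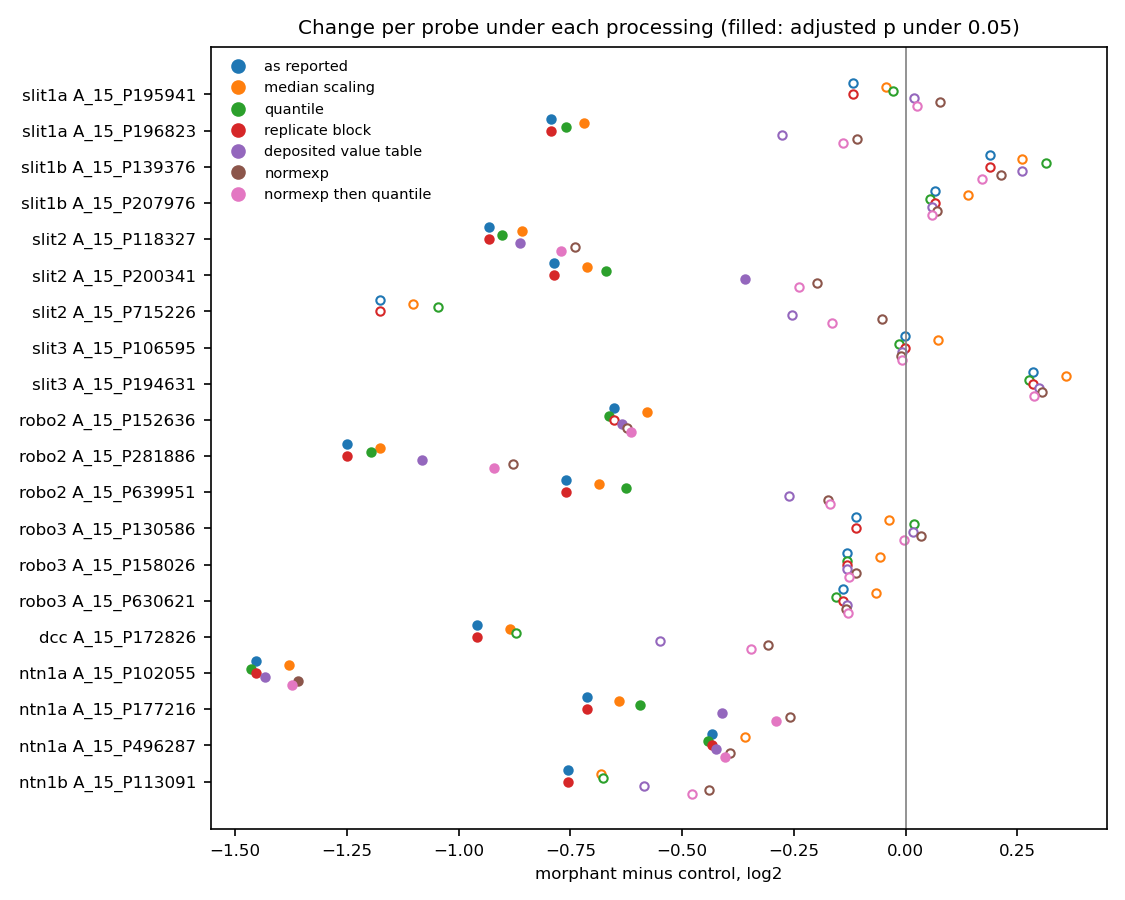
Morphant minus control difference in log2 signal (horizontal axis) for each of the 20 probes under 7 ways of processing, offset vertically for clarity; filled symbols passed an adjusted p of 0.05. The differences of the brightest probes of ntn1a and robo2 stay close together. With normexp correction slit2 A_15_P118327 goes from -0.93 to -0.74 and robo2 A_15_P281886 from -1.25 to -0.88. The differences of dim probes such as A_15_P200341, A_15_P639951 and A_15_P196823 shrink more towards 0 with normexp correction and in the deposited value table.

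The number of these falls that were called differed between ways of processing. With normexp correction of the raw signals followed by percentile scaling, 1 of the 20 probes was called, the brightest ntn1a probe (-1.36, adjusted p = 0.00204), while the share called among all probes dropped from 38.5% to 10.8%. There the change was -0.74 for slit2 A_15_P118327 (adjusted p = 0.0816), -0.88 for robo2 A_15_P281886 (0.0703), -0.62 for robo2 A_15_P152636 (0.0926) and -0.39 for ntn1a A_15_P496287 (0.129). It was -0.44 for ntn1b A_15_P113091, -0.31 for dcc A_15_P172826 and -0.26 for ntn1a A_15_P177216. It was -0.20 for slit2 A_15_P200341, -0.17 for robo2 A_15_P639951 and -0.11 for slit1a A_15_P196823. When the same normexp correction was followed by quantile normalization, 6 of the 20 probes were called, against 36.9% of all probes. In the deposited value table, whose making no source used here states, 7 of the 20 were called, against 38% of all probes: both brighter slit2 probes, the brighter 2 of robo2 and all 3 of ntn1a. The cause of these differences was not tested.

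Other genes of the pathway, from a list of 64, were mixed. The list was drawn up with earlier results of these data known. Of the 40 that had a tested probe, 13 fell and 3 rose in the same fit, 40% in all, where 35.6% of all genes with a symbol were called by their brightest probe (18.5% lower and 17.2% higher). Their median change was -0.14, against -0.01 over all genes with a symbol. A share this close to that of all genes is not a result about the pathway. With normexp correction 3 of the 40 were called: unc5cb, rgmb and dscama.

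Receptors of netrin other than dcc moved in both directions. Of 4 tested, 2 fell and 1 rose, and with the replicate number as a block neo1a passed as well (-0.42, limma adjusted p = 0.0380, against 0.0516 without the block). The UNC5 receptor gene unc5cb, whose product mediates repulsion from netrin, had a mean of -0.36 ± 0.34 in controls against -1.73 ± 0.19 in morphants (SD, n = 4 each) and fell by 1.37 (limma adjusted p = 0.000911), and its other probes were at -1.29 and -1.11. The related gene unc5b fell by 0.67 (adjusted p = 0.0205) but was well above background on 2 of 4 morphant arrays, and its call was lost without control replicate 2, morphant replicate 1 or morphant replicate 2 (adjusted p = 0.0558, 0.0578 and 0.0551). The adhesion receptor gene dscama, which is also a netrin receptor, rose by 1.19 (adjusted p = 0.00459), from -1.92 ± 0.50 to -0.73 ± 0.09 (SD, n = 4 each). Among 4 tested genes for ligands and their partners 1 fell, the repulsive guidance molecule gene rgmb, by 0.68 (adjusted p = 0.0147). Of 2 tested genes around Robo, 1 fell: srgap2, by 0.60 (adjusted p = 0.00723), with its other probe at -1.34. Over all genes with a symbol 18.5% were called lower and 17.2% higher, and sublists of 2 or 4 tested genes are too small to compare with that.

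Of 19 tested genes for cytoplasmic effectors, 5 fell and 2 rose, with a median of 0.09. The share called, 36.8%, is near the 35.6% of all genes with a symbol and is not a result about effectors. The Src family kinase gene fynb fell by 1.24 (limma adjusted p = 0.000538), the actin regulator gene enah by 0.92 (adjusted p = 0.0246) and trioa by 0.90 (adjusted p = 0.00481). The other probes of enah were at -0.13 and -0.10 and that of trioa at -0.28, so these sizes differ between probes. The enah call was lost without control replicate 2 (adjusted p = 0.0676) or morphant replicate 2 (0.0648). The Rac GTPase gene rac1b rose by 0.92 (adjusted p = 0.0106). The focal adhesion kinase gene ptk2ab rose by 0.39 (adjusted p = 0.0359) and did not pass without control replicate 1, 2 or 3 or morphant replicate 1, 2 or 4, at adjusted p-values of 0.0578 to 0.0927. With normexp correction none of these named genes passed, and the change of fynb shrank to -0.29 (limma adjusted p = 0.813).

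Of 11 tested matrix and heparan sulfate genes, which shape how far Slit and netrin spread, 4 fell and 0 rose. The share called was 36.4%, against 35.6% of all genes with a symbol (18.5% lower and 17.2% higher). With the replicate number as a block the dystroglycan gene dag1 rose as well, by 0.46 (limma adjusted p = 0.0260, against 0.0678 without the block). The heparan sulfate sulfotransferase gene hs2st1a fell by 0.98 (limma adjusted p = 0.000807) and extl3, a gene of heparan sulfate synthesis that is mutated in zebrafish boxer, by 0.58 (adjusted p = 0.0163). With normexp correction these changes were -0.51 (adjusted p = 0.398) and -0.29 (0.705). The extl3 call was also lost with quantile normalization (adjusted p = 0.0531) and in the deposited value table (0.0799). The glypican gene gpc1a fell by 0.57 (adjusted p = 0.0494), with other probes at -1.95 and -0.05. Its call was lost without any 1 of control replicates 2, 3 and 4 or morphant replicates 1, 2 and 4, at adjusted p-values of 0.0814 to 0.124.

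**Figure D4:**
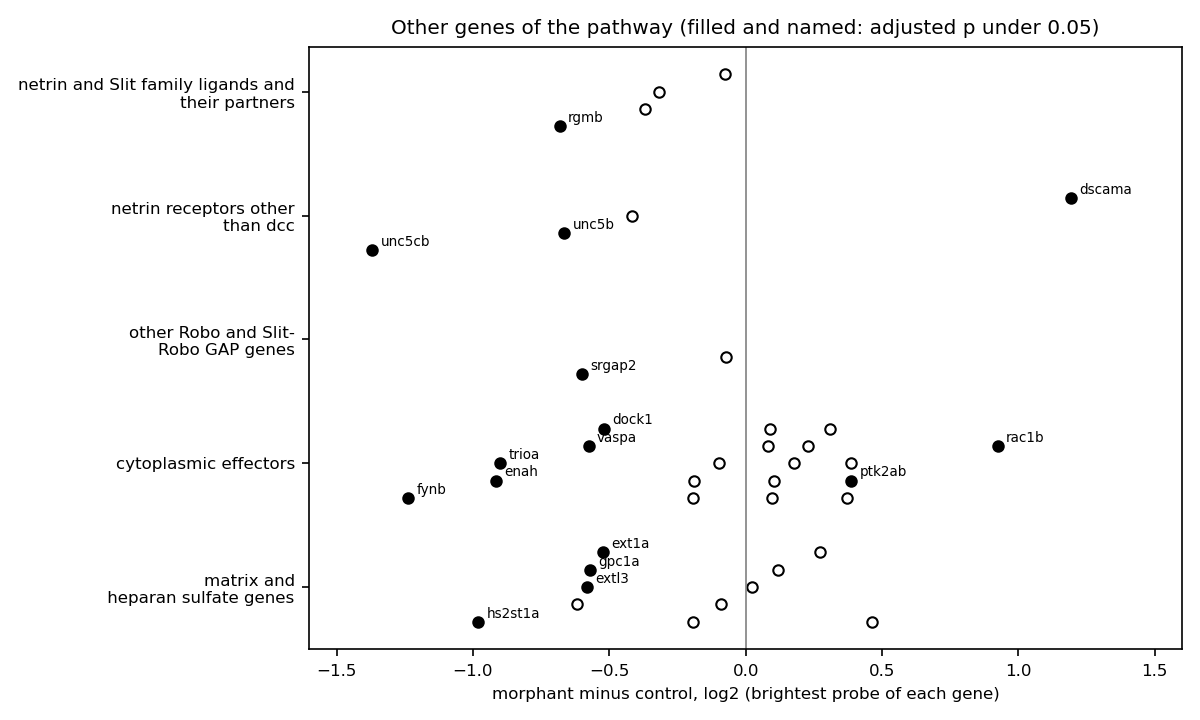
Morphant minus control difference in log2 signal (horizontal axis) of the 40 tested genes of the wider pathway, by sublist, each gene shown by its brightest probe; vertical offsets within a sublist only separate the points. Filled, named symbols passed an adjusted p of 0.05; 13 lie below 0, down to unc5cb, and 3 above, the farthest being dscama.

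Among markers of the cells that make or receive these cues, calls went in both directions. Of 8 tested pan-neuronal genes 1 rose, gap43 of growth cones, by 0.52 (limma adjusted p = 0.0135), and 0 fell. The share called was 12.5%, against 35.6% of all genes with a symbol. Their summed signal, relative to the 75th percentile of each array, was 44.7 to 47.6 in controls and 43.4 to 50.1 in morphants. All 9 floor plate and midline genes were tested, of which 2 rose and 0 fell. The share called was 22.2%, against 35.6% of all genes with a symbol. Over all genes with a symbol 17.2% were called higher by their brightest probe. Such a count is not a result about these cells. With the replicate number as a block 4 passed, where 40.7% of all genes were called by their brightest probe (19.5% higher and 21.2% lower). The summed signal of this list was 21.5 to 25.3 in controls and 25.9 to 33.0 in morphants. The brightest gene, ccn2a, with a control mean of 3.70, weighs most in this sum. Its change of 0.26 did not pass (limma adjusted p = 0.239). The 2 that rose were foxj1a, a regulator of motile cilia that is also used by ciliated cells elsewhere, at 2.22 (adjusted p = 5.37e-06), and the F-spondin gene spon1a at 0.79 (adjusted p = 0.0204). The spon1a call was lost without morphant replicate 2 (adjusted p = 0.0556). The floor plate also expresses netrin genes. Its part in the netrin values was not tested.

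Retinal ganglion cells carry robo2 in zebrafish, and the summed signal of their markers did not overlap between the groups. Of 6 tested genes 2 fell and 0 rose, where 18.5% of all genes were called lower. They were pou4f2, by 0.95 (limma adjusted p = 0.00493), and rbpms2a, by 0.65 (adjusted p = 0.00427), the latter with its other probe at -0.02. The atoh7, isl2b, pou4f3 and rbpms2b genes differed by 0.33, -0.03, 0.15 and -0.30 and did not pass. The summed signal was 12.6 to 15.4 in controls and 9.28 to 9.69 in morphants, and without rbpms2a it was 3.95 to 4.22 and 2.93 to 3.64. The rbpms2a gene, with a control mean of 3.30, weighs most in the first sum. In the second sum rbpms2b weighs most, with a control mean of 1.24, against -5.70 to -0.14 for the rest. Groups were also apart for 37.8% of all single probes. Of 5 commissural interneuron genes 1 fell, the axonal adhesion gene cntn2, by 1.19 (adjusted p = 0.00356), and the summed signal was 4.92 to 5.66 against 4.01 to 5.25. Among 6 motor neuron genes mnx1 rose by 0.87 (adjusted p = 0.000654) and isl1a fell by 0.43 (adjusted p = 0.0192), with sums of 4.49 to 4.83 and 3.90 to 4.64. The isl1a call was lost without control replicate 2 or morphant replicate 2 (adjusted p = 0.0593 and 0.0519). Of 6 radial glia and progenitor genes 1 fell, the glutamate transporter gene slc1a3b, by 0.89 (adjusted p = 0.00729). The shares called in the retinal ganglion cell, commissural, motor neuron and radial glia lists were 33.3%, 20%, 33.3% and 16.7%. Of all genes with a symbol 35.6% were called. Such counts are not a result about these cell types. Markers of vascular endothelium had sums of 1.38 to 1.57 and 2.0 to 2.43, and 2 of 5 genes rose, flt1 by 1.39 (adjusted p = 0.00579) and fli1 by 0.63 (adjusted p = 0.00341). Of all genes with a symbol 17.2% were called higher by their brightest probe. The other probes of fli1 were at -0.08 and 0.07. The vascular sum mostly follows the brightest fli1 probe, whose control mean was 0.26, against -5.45 to -2.94 for the rest of the list. The kdrl, kdr and cdh5 genes differed by -0.003, 0.02 and 0.12 and did not pass. With normexp correction 6 of these calls were lost. The changes of gap43, isl1a and spon1a were then 0.46, -0.43 and 0.61, close to or somewhat smaller than before. Those of cntn2, slc1a3b and flt1 were -0.40, -0.18 and 0.68, clearly smaller than before. The part of these cell types in the values of the guidance genes was not tested.

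The probe with the lowest adjusted p, ntn1a A_15_P102055, was also set against 11213 other named genes over the 8 arrays. The genes with the most similar values were gpsm2, a spindle orientation gene (Pearson r = 0.997), pbxip1b (0.995) and fanci, a gene of DNA crosslink repair (0.994). They changed by -0.72, -1.16 and -1.04. For 302 genes r was above 0.95. The 8 arrays share the contrast between 2 groups, so these values are a description of this design. In the RefSeq gene order, robo2 and robo1 are direct neighbours, as are robo4 and robo3. Of the 18 neighbours that are not member genes, 5 were tested. The lcorl gene beside slit2 fell by 0.91 (limma adjusted p = 0.0115) and mfsd6l beside ntn1b by 0.42 (adjusted p = 0.0430). The stx8 gene beside ntn1a rose by 0.87 (adjusted p = 0.00149), and tp53bp2a beside slit1a and cxcl14 beside slit3 did not pass. Over all genes with a symbol 18.5% were called lower and 17.2% higher by their brightest probe. These 5 genes are too few to compare with that share.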

How the data were processed

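Intensity values were read from the deposited scanner files, 1 per sample, made with Feature Extraction 10.7.3.1 on the Agilent design 026437 (build danRer6), per the file headers. The processed signal is background-subtracted and was not normalized between arrays. The authors' deposited value table holds log2 values, and how they were made is not given in the sources used here. Of its 8 columns, 6 held the values of a different replicate's scanner file, always within the group, and 0 those of the other group, so it served only for group comparisons. Flags and control types (other values) came from the same deposited files. The labels' protocol speaks of mouse arrays, whereas headers and probes are of a zebrafish design.

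The processed signal was taken to log2, each array's 75th percentile over non-control spots was subtracted, spots with outlier flags were left out and spots of a probe were averaged. No member probe had an outlier flag. A probe entered the test when 1 group or both had it well above background on 4 of 4 arrays. Tests used limma 3.58.1 in R 4.3.3 (lmFit, eBayes), 4 morphant against 4 control arrays, with Benjamini-Hochberg adjustment over all 36709 probes and a threshold of 0.05. Adjusted p-values are from this fit unless an exact permutation test (scipy 1.17.1) is named. Of these steps only the limma fit was tested on simulated data. The number of arrays limits the precision.

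Names came from matching each probe's unversioned accession to the RefSeq gene table of GRCz12tu, which matched 25069 probes to 12858 symbols. It served only for names and gene order. Whether a probe also matches a paralog was not examined, since probe sequences were not used here. Each list gene is shown by its brightest probe, by the mean of the 8 arrays. Named genes are all member probes, up to 3 genes per list and direction with the largest change among those past the threshold, the LIS1 genes, and the 3 genes most similar to the leading member probe. The neighbouring genes were added later. Members and lists were chosen with earlier results of these data known.

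The same replicate numbers are used in both groups, and same-numbered arrays sat on 1 slide, per the file headers. Their deviations from the group mean correlated at 0.444, 0.140, 0.304 and 0.259 for replicates 1 to 4, all above 0.1, which was the limit set for taking the numbers as pairs. The tests and intervals reported are unpaired although that limit was met. The pairing enters only as the replicate block and the sign flips. The labels describe pools of larvae without saying that they are separate clutches, so p-values measure the spread between these pools. Alternatives were normexp correction (offset 50), quantile normalization, median scaling, other filters on dim probes, the replicate block, the deposited value table, 1 probe per gene and leaving out each array. Normexp followed by quantile normalization, and the sum of retinal ganglion cell markers without rbpms2a, were chosen after seeing the data.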

Additional observations from a re-analysis of the deposited data

Results flagged for a closer look

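Of 40 groups of 4 arrays checked, 2 for each of the 20 probes, 2 held an array far from the other 3, and chance flags about 1 in 20 such groups. For dcc A_15_P172826, control replicate 4 read -3.24, while the other controls lay between -4.13 and -3.98. For ntn1a A_15_P496287, morphant replicate 4 read -0.0682, while the other morphants lay between -0.28 and -0.26. Without that array the change was -0.76 for dcc (limma adjusted p = 0.0486) and -0.48 for ntn1a (0.0402).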

How the results depend on the processing

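The number of probes called was 14119 of 36709 and became 3947 with normexp correction, and 10543 to 14737 as each array in turn was left out. Of the 20 guidance probes 11 were called, against 1 with normexp, 7 in the deposited value table, 6 with normexp then quantile normalization, and 6 to 11 without 1 array. With 1 probe per gene, 5 of 9 were called, against 38.7% of all probes in that setting. The median change of the 20 guidance probes, -0.68, became -0.15, -0.27 and -0.17 in normexp, the value table and normexp then quantile. It was -0.75 to -0.51 without 1 array. Pathway genes called numbered 16, against 3 with normexp and 11 to 16 without 1 array. The share of calls that were lower was 54.7%, against 45.3% with normexp, 47.1% with median scaling and 49.0% with quantile normalization.

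None of the 143 values of probes that were not called became a call, and 14 turned sign. For slit1a A_15_P195941 the change was 0.0778 with normexp, 0.0190 in the value table, 0.0258 with normexp then quantile, and -0.277 to 0.0782 without 1 array. For robo3 A_15_P130586 it was 0.0340 with normexp, 0.0197 with quantile normalization and 0.0168 in the value table. For slit3 A_15_P106595 it was 0.0729 with median scaling and -0.109 to 0.155 without 1 array, and for slit1b A_15_P207976 it was -0.0592 to 0.165 without 1 array. The within-array difference of slit1a and slit1b was 0.00829 with normexp and -0.306 to 0.0167 without 1 array. The cause of these shifts was not tested. With the replicate block, 10 of the 20 probes were called; among the guidance probes it ended the call of robo2 A_15_P152636 (adjusted p = 0.0584) and changed no other. Sign-flip permutation p-values of the 4 pairs with the block were 0.5, 0.125, 0.125 and 0.125, where 0.125 is the smallest that 4 slides allow, so this test could not pass. Precision is limited by 4 arrays a group and, for dim probes, by signals close to background.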
